A study of Mus musculus with 5 samples.

Results

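The genes that carry the signals of kidney blood vessels were followed by symbol: the ligands Vegfa, Angpt1 and Angpt2, the receptors Kdr, Flt1, Tek and Tie1, and the endothelial genes Nos3, Plvap and Pecam1. They are 10 of the 32285 genes listed in every library, of which 21894 had a UMI (unique molecular identifier, 1 per captured RNA molecule) in at least 3 kept cells. Kidney cells of male wild-type C57BL/6 mice were profiled by single-cell RNA sequencing of transcript 3′ ends. The mice were 8 to 10 weeks old when the models were set up. They were given aristolochic acid I (AAI), a plant toxin that injures the proximal tubule, or vehicle. The control group (1 library) received vehicle and is placed by the study at baseline (week 0). The AKI group (2 libraries) was taken at week 2 of AAI given intraperitoneally at 3 mg/kg every 3 days. The CKD group (2 libraries) was taken at week 4, after dosing had stopped at week 2. Time from the start, and with it age, thus differed between the groups. Nothing in the labels says whether a library is 1 mouse, so p-values measure the spread between libraries, which may be technical, and the spread of the single control is taken from the AKI and CKD libraries.

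Vascular endothelial growth factor A, the product of Vegfa, is released by podocytes, tubules and other cells and acts on endothelium. Its receptor Kdr (VEGFR2) carries most of the growth and permeability signal, while Flt1 (VEGFR1) binds the same ligand tightly and limits what reaches Kdr. Angiopoietin 1, made mainly by stromal and epithelial cells, activates the receptor Tek (TIE2) and stabilises vessels. Angiopoietin 2, stored and released by activated endothelium, can oppose it, and Tie1 is the orphan partner of Tek. Nos3 makes endothelial nitric oxide, Plvap forms the diaphragms of fenestrated capillaries, and Pecam1 is a junction protein of endothelium that some blood cells share.

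After filters on genes and mitochondrial reads and after removal of doublets, 53718 cells of 72896 barcodes were kept, with 54889145 to 78426542 UMIs per library. The libraries were uneven. In control, 38.7% of barcodes exceeded 30% mitochondrial UMIs against 11.1% to 12.7% in the others, and the median cell held 2837 UMIs in CKD 1 but 5554 in CKD 2. Of 117 barcodes shared by control and CKD 2, 88 belonged to a cell more than 20 times deeper in CKD 2, and 3 of these 88 control cells were EC-like; leaving them out moved no value of Kdr, Flt1, Tek or Angpt2 in EC-like cells, and Kdr stayed at -1.09 (log2, AKI against control). Clusters were named from fixed markers with the ending "-like", and the genes described here were left out of the clustering, so their levels did not draw its borders.

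EC-like cells (endothelial, named by Emcn, Cdh5, Egfl7, Esam, Eng and Meis2) numbered 1434 in control, 426 and 427 in AKI 1 and AKI 2, and 1068 and 292 in CKD 1 and CKD 2. All 6 markers were detected in each library, with a summed level of 64.3 UMIs per 10000 in control, 51.4 and 56.4 in AKI, and 39.2 and 55.2 in CKD. CKD 1 stood lowest. These cells held 97.0% of all Kdr UMIs in control, 90.7% and 93.4% in AKI, and 84.2% and 90.7% in CKD, so the receptor is described there. Signals of other cells also differed within EC-like cells. The 9 T lymphocyte markers summed to 0.114 UMIs per 10000 in control, 1.27 and 1.47 in AKI, and 5.50 and 1.98 in CKD. The 5 markers of the thick ascending limb (TAL) summed to 12.2 in control, 1.32 and 1.22 in AKI (Cldn16 at 0 in AKI 2), and 7.43 and 0.543 in CKD, and 12 dissociation and stress genes to 206, 455 and 446, 303 and 480 in the same order. Their part in the results below was not tested.

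The proximal promoters of the receptor genes are shown because these genes share endothelial expression and because the core GGAA, which ETS factors such as Erg and Fli1 recognise, is frequent in endothelial control regions. Each line gives the 250 bases before the transcription start from RefSeq (GRCm38.p6), 5′ to 3′ on the gene's strand, with GGAA or its reverse complement TTCC in capitals. Of the 10 genes, 5 were listed there (the 4 receptors and Vegfa). Kdr lies at chr5:75978456-75978705 (minus strand), Flt1 at chr5:147726012-147726261 (minus), Tek at chr4:94739039-94739288 (plus) and Tie1 at chr4:118489850-118490099 (minus).
Kdr: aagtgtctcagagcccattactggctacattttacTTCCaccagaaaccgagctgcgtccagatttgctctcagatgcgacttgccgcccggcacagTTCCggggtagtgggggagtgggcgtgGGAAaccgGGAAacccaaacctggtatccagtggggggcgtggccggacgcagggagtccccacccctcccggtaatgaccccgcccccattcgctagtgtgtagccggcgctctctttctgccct
Flt1: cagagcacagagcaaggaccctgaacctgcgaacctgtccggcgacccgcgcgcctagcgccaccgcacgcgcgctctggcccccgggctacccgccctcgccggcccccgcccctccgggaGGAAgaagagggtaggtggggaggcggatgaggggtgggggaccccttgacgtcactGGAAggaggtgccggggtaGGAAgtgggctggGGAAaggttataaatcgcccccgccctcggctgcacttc
Tek: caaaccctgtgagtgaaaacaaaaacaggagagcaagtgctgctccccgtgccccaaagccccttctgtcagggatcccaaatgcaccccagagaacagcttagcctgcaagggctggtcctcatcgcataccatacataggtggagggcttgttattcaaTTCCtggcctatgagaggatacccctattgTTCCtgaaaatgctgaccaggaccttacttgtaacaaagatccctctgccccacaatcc
Tie1: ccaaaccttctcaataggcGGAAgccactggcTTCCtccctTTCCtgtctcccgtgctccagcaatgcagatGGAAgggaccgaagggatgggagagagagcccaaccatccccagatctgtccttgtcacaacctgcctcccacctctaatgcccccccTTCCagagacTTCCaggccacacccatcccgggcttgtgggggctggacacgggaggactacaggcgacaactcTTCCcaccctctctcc
Kdr and Flt1 each held 4 matches, a number that 33.4% of 32841 promoters of this length reached. Tie1 held 7, reached by 3.82%, and Tek 2, reached by 76.8%. At least 1 match stood in 93.5% of promoters, so its presence alone sets none of the 4 genes apart.

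Kdr was the receptor with the widest gap between control and AAI libraries. In EC-like cells control was at 13.8 UMIs per 10000, the AKI libraries at 6.22 and 6.20, and the CKD libraries at 4.65 and 6.70. All 4 AAI libraries were below control, and AKI and CKD overlapped. In the fit of all 5 libraries (edgeR quasi-likelihood test on summed counts, Benjamini-Hochberg adjustment over all genes tested), the difference was -1.09 ± 0.24 (log2 fold change ± SE) for AKI against control, or 2.13-fold lower, with adjusted p = 0.142. For CKD against control it was -1.15 ± 0.24, with adjusted p = 0.128, and for CKD against AKI -0.06 ± 0.20, with adjusted p = 0.973. Neither gap to control passed the adjusted threshold of 0.05. Without CKD 1 the values were -1.09 and -0.92, and without CKD 2 they were -1.09 and -1.42. Whether a gap passed turned on the library left out, since each such fit took its spread from the only pair left. The AKI pair lay close together, at 6.22 and 6.20. DESeq2 gave adjusted p = 0.00588 and 0.00327, no filter on low counts 2.9e-04 and 9.0e-05, and doublets kept 0.0381 for CKD. The sign was the same in all 14 alternatives run for each of the 2 contrasts.

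None of the 10 genes passed the threshold in EC-like cells in any contrast. For AKI against control 6 of 12475 genes did (0.0481%, of which 0.0321% higher and 0.0160% lower; 1675 at unadjusted p under 0.05, and 307 by DESeq2), for CKD against control 16 (0.128%, with 0.112% higher and 0.0160% lower; 1574 and 333), and for CKD against AKI 0 (0%; 497 unadjusted and 4 by DESeq2). Exact permutation of 2 libraries against 2 cannot give a p below 0.333.

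Kdr was also measured against other genes and other cuts of the same cells. Its UMIs per UMI of Plvap, within a library, were 0.624 in control, 0.289 and 0.262 in AKI, and 0.323 and 0.278 in CKD, so the gap was present relative to another endothelial gene. After each cell was thinned to 1000 UMIs, 67.0% of EC-like cells held a Kdr UMI in control, 47.5% and 43.6% in AKI, and 23.3% and 50.4% in CKD; unthinned, the shares were 87.4%, 88.3%, 85.1%, 42.3% and 86.9%. Thinning left out 105, 51, 44, 0 and 18 shallower EC-like cells in the same order of libraries. Among T lymphocyte-like cells, a type without Kdr, the thinned share was 0.0563% to 0.388%. Median depth before thinning was 2493.5 to 7368 UMIs in EC-like cells and 3327 to 5652.5 in T lymphocyte-like cells. Unthinned, control lay within the range of the AAI libraries, and thinned it lay above all 4.

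**Figure D1:**
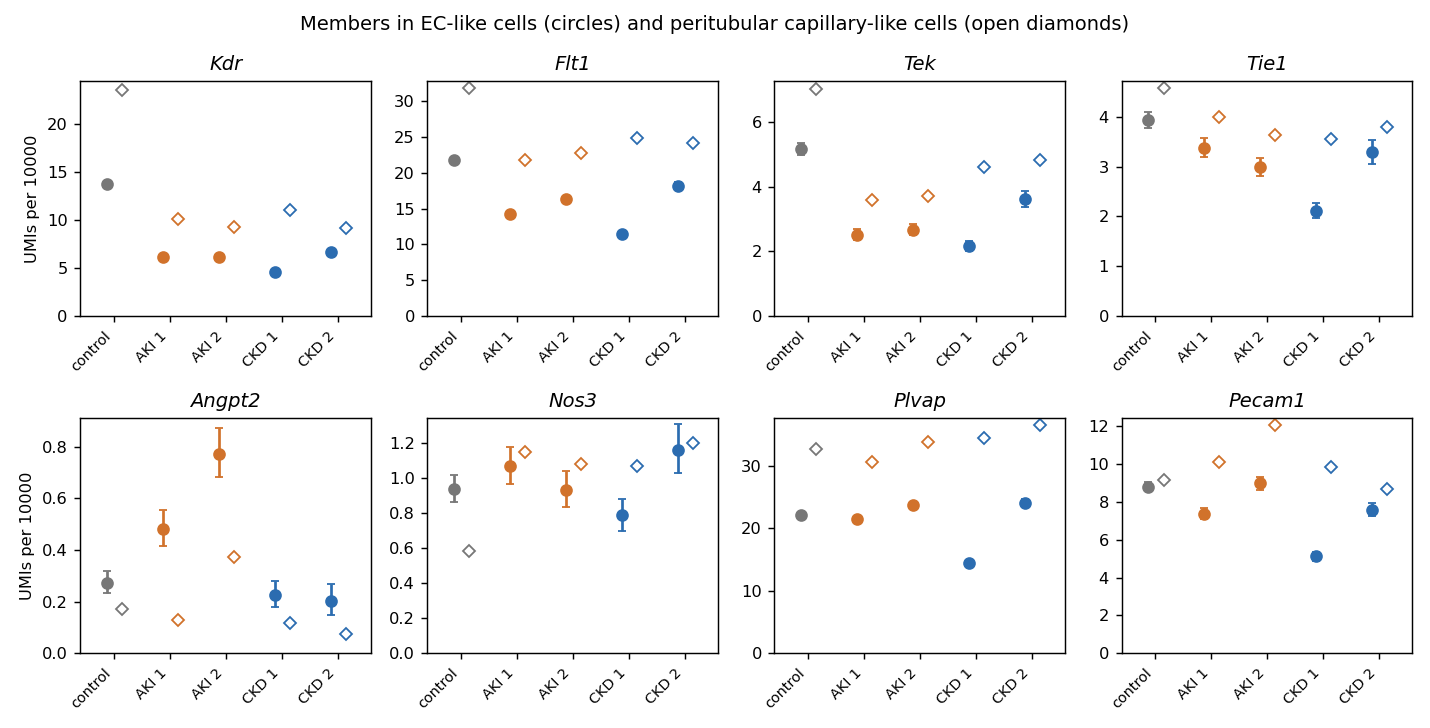
UMIs per 10000 of 8 genes (one panel each, linear axes from 0) in the 5 libraries, as circles for all EC-like cells with exact 95% Poisson intervals (counting error only, often smaller than the symbol) and open diamonds for peritubular capillary-like cells. Kdr and Tek were highest in control in both sets of cells, Plvap was not, and Angpt2 was highest in the AKI libraries among EC-like cells.

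Flt1, the decoy-type VEGF receptor, was at 21.8 UMIs per 10000 in control, 14.3 and 16.3 in AKI, and 11.4 and 18.2 in CKD. All AAI libraries were again below control, but by less: -0.45 ± 0.28 for AKI (adjusted p = 0.559) and -0.43 ± 0.28 for CKD (adjusted p = 0.614). Over the alternatives the AKI value ran from -0.65 to -0.37 and the CKD value from -0.79 (without CKD 2) to -0.15. The co-receptor Nrp1, which presents VEGF to Kdr and was picked after its values were seen, was at 8.69 in control and at 2.31 to 2.69 in the 4 AAI libraries, a difference of -1.81 ± 0.19 for AKI with adjusted p = 0.0561. Of the 5 VEGF receptors and co-receptors (Kdr, Flt1, Flt4, Nrp1 and Nrp2), none passed, 2 had a positive value, and the median was -0.45 for AKI and -0.43 for CKD, against medians of 0.00 and 0.03 over all genes tested. With a CKD library left out more of them were called, as over all genes tested, in fits whose spread came from the AKI libraries.

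Tek, the angiopoietin receptor, was at 5.15 UMIs per 10000 in control, 2.52 and 2.67 in AKI, and 2.17 and 3.61 in CKD. The control library was the highest, and the CKD libraries lay on both sides of AKI. The difference was -0.92 ± 0.30 for AKI (adjusted p = 0.270) and -0.71 ± 0.30 for CKD (adjusted p = 0.410). Without CKD 1 the CKD difference was -0.39 and CKD against AKI was 0.53, and without CKD 2 the CKD difference was -1.10. The AKI difference ran from -1.11 to -0.89 over the alternatives, and with no filter on low counts it had adjusted p = 0.00425. Tie1 showed a smaller gap, with 3.94 in control, 3.38 and 2.99 in AKI, and 2.11 and 3.29 in CKD (-0.24 ± 0.29, adjusted p = 0.770, and -0.41 ± 0.28, adjusted p = 0.632). For Tie1, the CKD value without CKD 2 was -0.75 against control and -0.51 against AKI. The ratio of Tek to Tie1 UMIs was 1.31 in control, 0.744 and 0.895 in AKI, and 1.02 and 1.10 in CKD. Ptprb, the phosphatase that quiets Tek, was at 15.3 in control and 8.04 to 10.0 in the AAI libraries (-0.66 ± 0.20 for AKI, adjusted p = 0.250). Of the 5 angiopoietin and TIE genes tested, none passed. For AKI 1 was positive (Angpt2), with a median of -0.66, and for CKD 0 were, with a median of -0.62. More were called with a CKD library left out, as over all genes tested, with the spread then taken from the AKI libraries.

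Nos3, Plvap and Pecam1 differed little between groups in EC-like cells as a whole. Nos3 was at 0.940 UMIs per 10000 in control, 1.07 and 0.933 in AKI, and 0.788 and 1.16 in CKD (0.16 ± 0.27, adjusted p = 0.852, and 0.18 ± 0.27, adjusted p = 0.846). Plvap was at 22.1 in control, 21.5 and 23.7 in AKI, and 14.4 and 24.1 in CKD (0.09 ± 0.30 and -0.07 ± 0.30, adjusted p = 0.935 and 0.953). Pecam1 was at 8.81, then 7.38 and 8.98, then 5.13 and 7.60 (-0.04 ± 0.27 and -0.34 ± 0.27, adjusted p = 0.969 and 0.688). Control lay within the range of the AAI libraries for Nos3 and Plvap, and of AKI for Pecam1, and CKD 1 was the lowest library for all 3. Without CKD 2, CKD against control was -0.47 for Plvap and -0.63 for Pecam1, and CKD against AKI was -0.56 and -0.59.

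**Figure D2:**
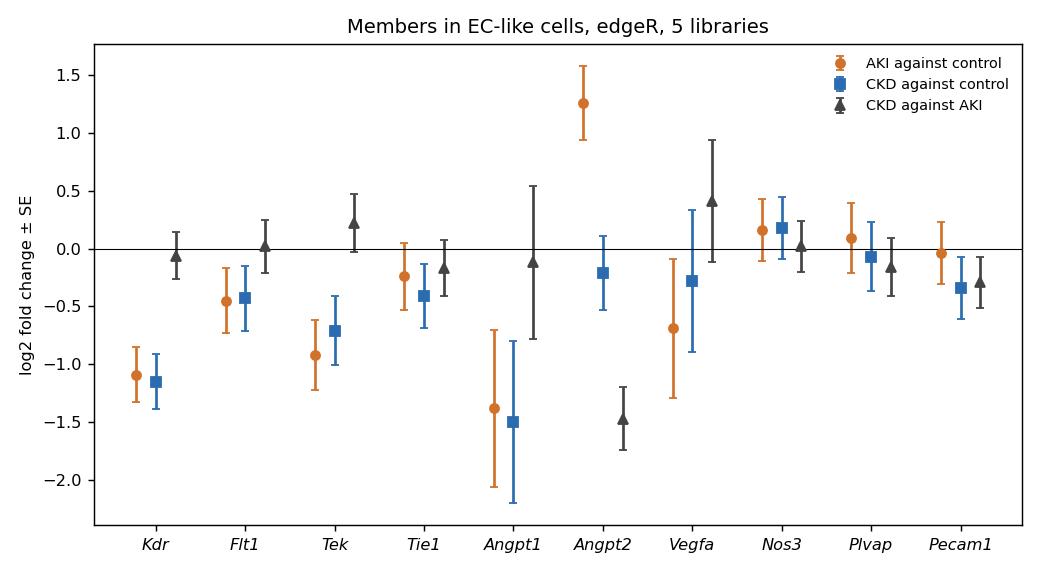
Log2 fold change with SE of the 10 genes in EC-like cells for the 3 contrasts (edgeR, 5 libraries, 12475 genes tested). Kdr and Tek lay below 0 against control in both AAI groups, and Angpt2 lay at 1.26 for AKI against control and at -1.47 for CKD against AKI; none passed an adjusted p of 0.05.

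EC-like cells formed 9 subclusters, among which Kdr and Plvap took different levels. Clusters 0 and 4 were peritubular capillary-like (Npr3 and Igfbp5 among their leading genes), cluster 2 vasa recta-like (Aqp1, Slc14a1), cluster 5 venous-like (Igf1, Selp) and cluster 8 glomerular-like (Ehd3, Plat, with 3 to 9 cells per library). Unnamed were cluster 1 (led by T lymphocyte genes such as Trbc2 and Cd3d), cluster 3 (led by stress and interferon genes such as Dnajb1 and Ifit1), cluster 6 (led by mural cell genes such as Rgs5 and Acta2) and cluster 7 (led by macrophage genes such as Ctsk, with 41 cells, all in CKD 1). Cluster 1 made up 19.0% of EC-like cells in control, 20% and 19.0% in AKI, 52.0% in CKD 1 and 16.1% in CKD 2, and its Kdr level in CKD 1 was 1.22 UMIs per 10000 against 4.99 to 11.7 in the other libraries. Plvap, as fenestral diaphragm protein, was at 35.7 to 54.5 in venous-like, 2.98 to 5.32 in vasa recta-like and 0.00 to 1.90 in glomerular-like cells, where only CKD 1 had any UMI. Kdr had another order, with 32.4 to 74.9 in the few glomerular-like cells and 2.23 to 3.90 in vasa recta-like cells.

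In the peritubular capillary-like cells (779 in control, 141 and 158 in AKI, 227 and 139 in CKD), Kdr was at 23.5 UMIs per 10000 in control, 10.1 and 9.34 in AKI, and 11.1 and 9.21 in CKD. The log2 difference from control was -1.23 for AKI and -1.15 for CKD, and CKD 1 was the highest AAI library. Tek was at 7 in control, 3.57 and 3.71 in AKI, and 4.6 and 4.83 in CKD, so that both CKD libraries lay between AKI and control. Nos3 was at 0.585 in control and at 1.07 to 1.20 in the 4 AAI libraries, a log2 difference of 0.98 for AKI and 1.02 for CKD that EC-like cells as a whole did not show. Plvap (30.7 to 36.6) and Pecam1 (8.69 to 12.1) had control within their range. These cells were set apart after the values of all EC-like cells were known, so no test is given. Leaving out clusters 1 and 7 in place of this cut gave Kdr -1.09 for AKI and -0.97 for CKD, and Tek -0.92 and -0.53.

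In the venous-like and vasa recta-like cells control was not the highest library for Kdr. Venous-like cells held Kdr at 5.33 UMIs per 10000 in control, 6.19 and 6.15 in AKI, and 6.93 and 7.51 in CKD, with control the lowest. Vasa recta-like cells held it at 2.62, then 2.56 and 2.77, then 2.23 and 3.90, with control inside the range. Whether the differences themselves differed between subclusters was not tested. Tek in venous-like cells was at 7.36 in control and 3.20 to 5.01 in the AAI libraries. In cluster 6, Nos3 was at 2.93 in control and 1.25 to 1.56 in the AAI libraries and Pecam1 at 15.6 against 3.86 to 7.46, opposite to the order of Nos3 in capillary-like cells; it held 63 cells in control and 8 to 51 in the others.

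**Figure D3:**
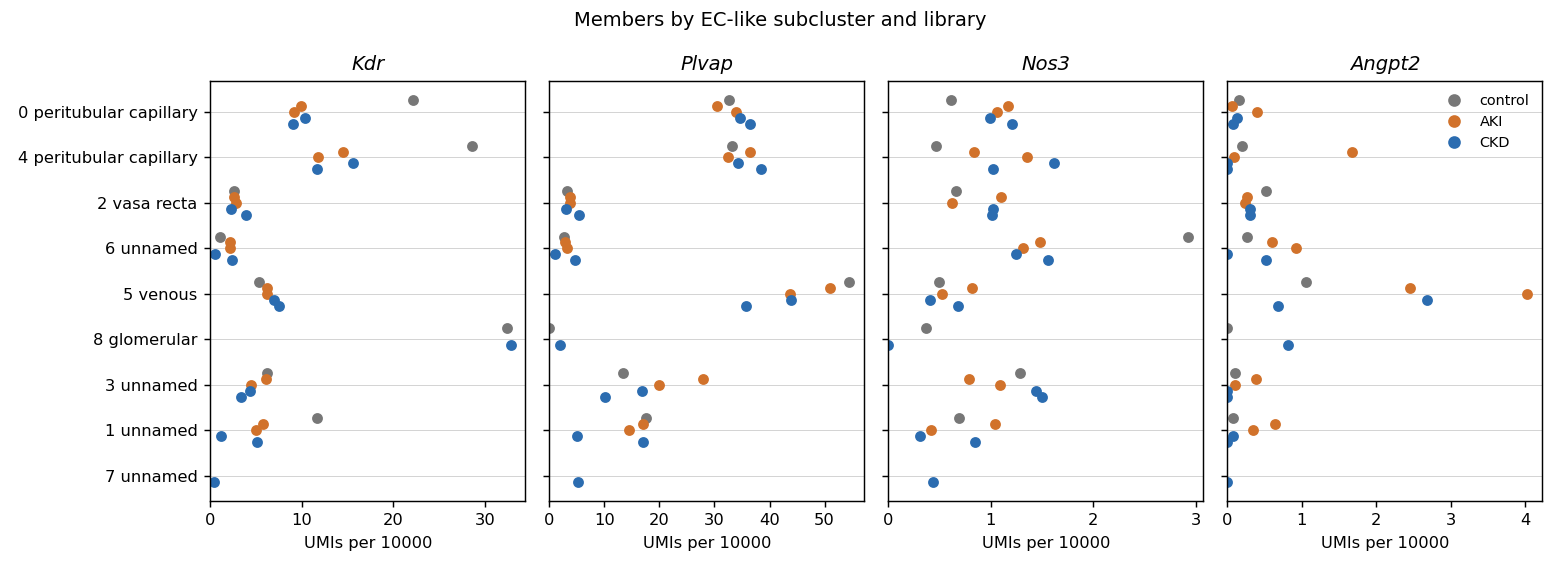
UMIs per 10000 of Kdr, Plvap, Nos3 and Angpt2 in each EC-like subcluster, 1 point per library (grey control, orange AKI, blue CKD), leaving out points from under 20000 UMIs. Kdr in peritubular capillary-like cells was higher in control than in every AAI library, and Angpt2 was highest in venous-like cells.

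Angpt2 had its highest EC-like levels in the AKI libraries. In EC-like cells it was at 0.272 UMIs per 10000 in control, 0.481 and 0.774 in AKI, and 0.226 and 0.201 in CKD (162, 186, 262, 84 and 47 UMIs). Both AKI libraries were above control and both CKD libraries below it, so that AKI and CKD did not overlap. The difference was 1.26 ± 0.32 for AKI against control (2.40-fold, adjusted p = 0.188), -1.47 ± 0.27 for CKD against AKI (adjusted p = 0.922) and -0.21 ± 0.32 for CKD against control (adjusted p = 0.850). Over the alternatives the first 2 ran from 0.61 to 1.56 and from -1.77 to -1.11. With no filter on low counts they had adjusted p = 4.1e-04 and 1.2e-07. Whether they passed with a library left out turned on which library it was. Venous-like cells carried the highest level, at 1.05 in control, 2.45 and 4.03 in AKI, and 2.68 and 0.679 in CKD, where CKD 1 lay inside the AKI range. In capillary-like cells it was 0.170, then 0.129 and 0.372, then 0.117 and 0.0753. Venous-like cells made up 5.09% of EC-like cells in control, 10.3% and 12.6% in AKI, and 2.9% and 9.93% in CKD. The level of the whole class thus also moves with its make-up, and the part of these shares was not tested.

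Most Angpt2 molecules were not endothelial. Unnamed clusters held 86.4% of Angpt2 UMIs in control, 66.1% and 54.1% in AKI, and 65.1% and 48.3% in CKD, against 11.4%, 25.1%, 36.8%, 10.9% and 15.8% in EC-like cells. Those of the unnamed clusters lay almost all in cluster 23, led by Slc14a2 (a urea transporter of the inner medulla), Fst and Bst1. Its level was 4.82 UMIs per 10000 in control, 1.49 and 1.18 in AKI, and 1.90 and 1.54 in CKD, from 141, 100, 123, 419 and 31 cells. Every AAI library there was below control, the opposite order to the AKI libraries in EC-like cells. Another source in CKD was macrophage cluster 13 (led by Ctsk, Mmp9 and Acp5), with 104 UMIs (0.120 per 10000) in CKD 1 and 70 (0.0720) in CKD 2, against 1 UMI in AKI 1 and 0 in AKI 2 and control, where the 63 control cells allow a level of up to 0.426. These clusters were picked after their values were seen and have no test.

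Vegfa was spread over the nephron. By median over libraries with at least 20 cells the classes ranked distal convoluted tubule or DCT-like (1.24 UMIs per 10000, 4 libraries), collecting duct intercalated or CD IC-like (1.21), collecting duct principal or CD PC-like (1.06), neutrophil-like (1.05, 4 libraries), proximal tubule or PT-like (0.863), NK-like (0.765), pericyte/fibroblast-like (0.707), monocyte-like (0.696, 4 libraries) and TAL-like (0.671). Neighbours in this order overlapped between libraries. EC-like cells were at 0.0813 to 0.288 and T lymphocyte-like cells at 0.0294 to 0.146. As shares of all Vegfa UMIs, CD IC-like cells gave 30.5% in control and 9.47% to 18.6% in the AAI libraries, PT-like cells 13.8% and 15.7% to 28.7%, and macrophage-like cells 0.827% in control, 5% and 10.8% in AKI, and 9.34% and 20.6% in CKD. These shares move with how many cells of each class were captured. Per 10000 UMIs, macrophage-like Vegfa was 0.174 in control, 0.183 and 0.191 in AKI, and 0.260 and 0.310 in CKD.

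In PT-like cells Vegfa was at 1.38 UMIs per 10000 in control, 0.863 and 0.663 in AKI, and 0.746 and 1.05 in CKD. Control was above every AAI library, and CKD 2 was nearest to it. The difference was -0.93 ± 0.25 for AKI against control (1.91-fold lower, adjusted p = 0.0613), in a contrast where 8.21% of 12812 genes passed (5.31% higher, 2.90% lower), and 0.27 ± 0.21 for CKD against AKI (adjusted p = 0.602; 0.125% passed, 0.0312% higher and 0.0937% lower). Leaving out 1 library gave AKI differences of -0.93 (CKD 1), -0.90 (CKD 2), -1.10 (AKI 1) and -0.78 (AKI 2). With all libraries, the AKI difference passed with DESeq2 (0.0391), with no filter on low counts (0.00167) and with the replicate block (0.0366). With at most 15% mitochondrial UMIs it was -0.43 (adjusted p = 0.467). The order of libraries differed among the 3 PT-like clusters. Cluster 17 (led by the noncoding RNA Gm26917) had the highest level, at 4.30 in control and 2.47 to 3.39 in the AAI libraries, and made up 34.2% of PT-like cells in control, 29.4% and 19.2% in AKI, and 18.0% and 34.6% in CKD. Cluster 15 (Slc4a4, Slc34a1) was at 1.25 in control and 0.549 to 0.701 in the others. Cluster 3 (Miox, Gsta2) was lowest in control, at 0.244 against 0.263 to 0.468. Without cluster 17 the class difference was -0.53 for AKI.

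TAL-like cells gave the same order for AKI, with Vegfa at 0.934 in control, 0.671 and 0.510 in AKI, and 0.663 and 0.778 in CKD. The difference was -0.71 ± 0.22 (adjusted p = 0.0799), where 10.7% of 12418 genes passed (6.13% higher, 4.55% lower), and 0.33 ± 0.19 for CKD against AKI (adjusted p = 0.612; 0.0886% passed, 0.0483% higher and 0.0403% lower). The AKI difference passed with no filter on low counts (0.0294) and with doublets kept (0.0358), and had adjusted p = 0.401 with DESeq2. With at most 15% mitochondrial UMIs it was -0.41 (adjusted p = 0.479). Leaving out 1 library gave -0.70 without CKD 1 or CKD 2, -0.93 without AKI 1 and -0.53 without AKI 2. CD PC-like cells were at 1.96 in control, 1.38 and 0.987 in AKI, and 0.998 and 1.06 in CKD, again with control highest. DCT-like cells were not ordered this way, with 1.16 in control, 1.32 and 1.53 in AKI, and 0.807 and 1.33 in CKD, the last from 19 cells. CD IC-like cells were at 1.43 in control, 1.32 and 1.19 in AKI, and 0.964 and 1.21 in CKD. No test was made in these last 3 classes. The stress genes summed to 30.5 in control and 51.5 to 98.2 in the AAI libraries in PT-like cells, and to 74.2 against 66.0 to 143 in TAL-like cells; their part was not tested.

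**Figure D4:**
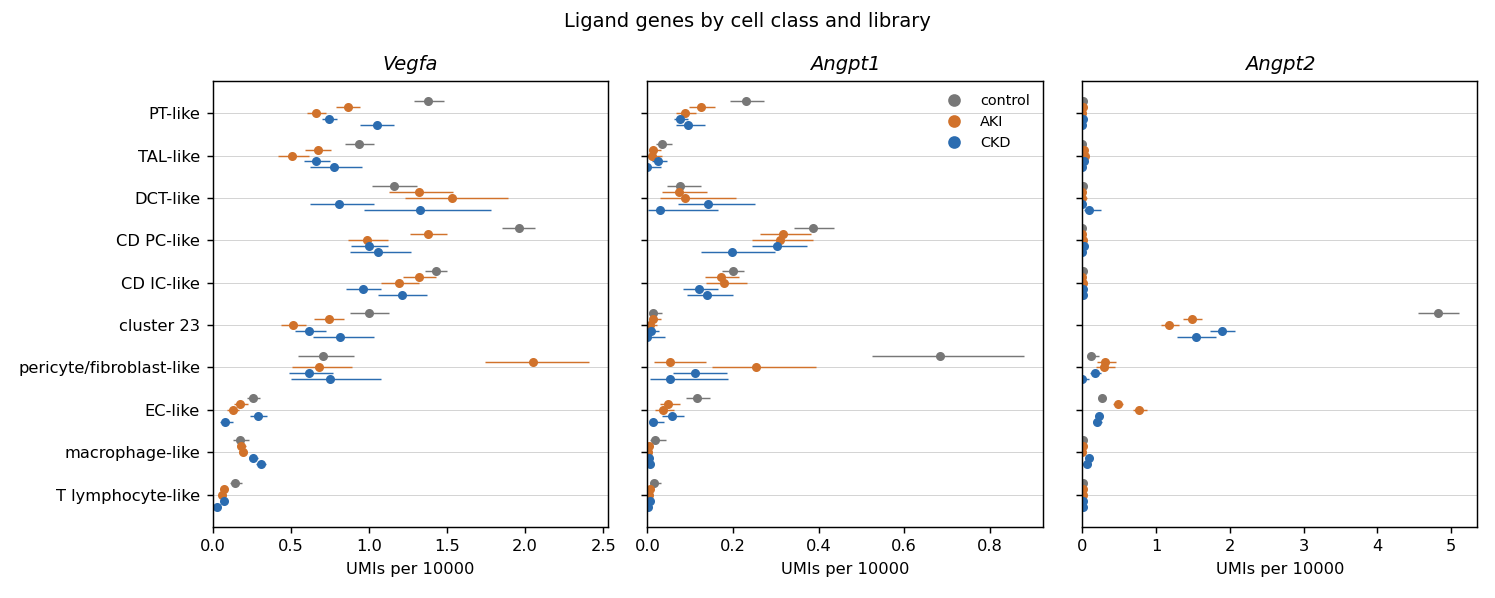
UMIs per 10000 of the ligand genes Vegfa, Angpt1 and Angpt2 by cell class and for unnamed cluster 23, 1 point per library (grey control, orange AKI, blue CKD) with exact 95% Poisson intervals that cover counting error only. Among the rows drawn, Vegfa was spread over tubule classes, Angpt1 was highest in pericyte/fibroblast-like cells of control and in CD PC-like cells, and Angpt2 lay mainly in cluster 23. Neutrophil-like, NK-like and monocyte-like cells, each with a higher median Vegfa level than TAL-like cells, were not drawn.

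Podocytes, the best known Vegfa source of the glomerulus, formed no cluster under the naming rule, so the names rebuilt here differ from those of the study. Vegfa levels of podocytes are therefore not given. In pericyte/fibroblast-like cells Vegfa was at 0.707 in control, 2.05 in AKI 1, 0.678 in AKI 2, and 0.619 and 0.753 in CKD, where AKI 1 alone stood out (0.98 ± 0.62, adjusted p = 0.864). In that class 0% of 9811 genes passed in either contrast by edgeR (635 and 1040 at unadjusted p under 0.05, 29 and 31 by DESeq2).

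Neutrophil-like cells had the highest level in single libraries, on few cells. Cluster 39 held nearly all of them in control and AKI, with Vegfa at 2.75 (19 cells, too few for the ranking above), 1.65 (43) and 4.07 (37). Cluster 41 held nearly all in CKD, at 0.341 (46 cells) and 0.450 (26), each from 3 UMIs. Different clusters thus held the class in the 2 sets of libraries, and no test was made.

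Angpt1 gave the only call among the 10 genes. In PT-like cells it was at 0.230 UMIs per 10000 in control, 0.125 and 0.0884 in AKI, and 0.0772 and 0.0954 in CKD (130, 72, 62, 91 and 33 UMIs). T lymphocyte-like cells were at 0.00141 to 0.0146. Angpt1 fell 2.27-fold in AKI against control (log2 -1.18 ± 0.28, edgeR adjusted p = 0.0451), in a comparison where 2.90% of 12812 genes were called lower. All AAI libraries were below control, and CKD against AKI was at -0.28 ± 0.25 (adjusted p = 0.658). The call lay near the threshold: it was lost with DESeq2 (0.186), without AKI 1 (0.125), without AKI 2 (0.323), with doublets kept (0.105), at 15% mitochondrial UMIs (0.0687) and with no correction by library (0.0656), while the sign held in all 13 alternatives. The order held in each of the 3 PT-like clusters, at 0.230 against 0.0849 to 0.130 in cluster 15, 0.364 against 0.0765 to 0.199 in cluster 17, and 0.169 against 0.00 to 0.104 in cluster 3.

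Stromal Angpt1 was lower too in the AAI libraries, without a call. Pericyte/fibroblast-like cells held it at 0.685 UMIs per 10000 in control, 0.0537 and 0.253 in AKI, and 0.111 and 0.0519 in CKD (61, 4, 19, 14 and 2 UMIs). The difference was -2.10 ± 0.70 for AKI (adjusted p = 0.569), and it ran from -3.61 to -1.36 over the alternatives. Most control UMIs lay in the fibroblast cluster 30 (led by Dcn and Col1a2), at 1.15 in control, 0.0690 and 0.267 in AKI, and 0.134 and 0.0620 in CKD. The classes named as collecting duct gave the steadiest source. CD PC-like cells were at 0.388 in control, 0.318 and 0.309 in AKI, and 0.304 and 0.197 in CKD. Within them cluster 31 (led by S100g, Slc8a1 and Calb1) was at 0.669, then 0.392 and 0.445, then 0.420 and 0.389. Its 10 leading genes held 2 CD PC markers (Scnn1g and Hsd11b2) and 2 DCT markers (Slc8a1 and Calb1), so its place in the collecting duct is uncertain. CD IC-like cells were at 0.200, then 0.171 and 0.179, then 0.120 and 0.139. Control was highest in all 3, and no test was made. In EC-like cells Angpt1 rested on 69, 19, 12, 21 and 3 UMIs (-1.38 ± 0.68 for AKI, adjusted p = 0.461), and the AKI value ran from -1.65 to -0.87 over the alternatives. Vegfa in EC-like cells, at 0.257 in control, 0.176 and 0.127 in AKI, and 0.288 and 0.0813 in CKD, had the CKD libraries on both sides of all others. Its difference was -0.69 ± 0.60 for AKI (adjusted p = 0.675) and -0.28 ± 0.61 for CKD (0.895), and CKD against control was -1.54 without CKD 1 and 0.31 without CKD 2.

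The receptors and endothelial genes were at low levels outside EC-like cells, and none passed there with 5 libraries. Pericyte/fibroblast-like cells had the most, with Plvap at 0.584 UMIs per 10000 in control, 2.91 and 2.34 in AKI, and 0.928 and 1.71 in CKD. All 4 AAI libraries were above control (2.20 ± 0.48 for AKI, adjusted p = 0.352), and the AKI value ran from 0.6 to 2.34 over the alternatives. Kdr in the same cells was at 0.483, then 1.02 and 0.611, then 0.460 and 0.493. The stress genes summed there to 201 in control, 420 and 298 in AKI, and 203 and 289 in CKD. In cluster 35 of this class (led by Acta2, Ren1 and Rgs5) the EC markers came second to the class's own (mean marker score 2.021 against 2.756). The part of stress genes and of endothelial cells or RNA within this class was not tested. Of the 10 genes, 8 could be tested in PT-like cells, 9 in TAL-like cells and 10 in pericyte/fibroblast-like cells, and Angpt1 in PT-like cells was the one that passed.

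Across the 69 sums of class and library (15 classes, which share libraries), the genes with levels most like Kdr were Ptprb (Pearson r = 0.953), Emcn (0.945) and Sox18 (0.945), endothelial genes of which Emcn helped to name the class. Those most like Vegfa were Plekhg3 (0.770), Smim4 (0.692) and Sod2 (0.688), a mitochondrial superoxide dismutase.

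The genes named here lie on the mouse genome (GRCm39) as follows. Vegfa spans chr17:46327919-46343309, Kdr chr5:76093487-76139884, Flt1 chr5:147498414-147662826, Tek chr4:94627291-94763224 and Tie1 chr4:118328385-118347261. Angpt1 spans chr15:42288058-42540417, Angpt2 chr8:18739202-18791603, Nos3 chr5:24569787-24589475, Plvap chr8:71948674-71964506 and Pecam1 chr11:106543689-106641454. Reads were counted per gene at transcript 3′ ends, so levels were compared between cells and libraries and not between genes.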

How the data were processed

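UMI counts of 5 libraries (1 control, 2 AKI, 2 CKD) were used as deposited: the authors aligned reads and counted UMIs per gene and cell with Cell Ranger 7.2.0 and STAR on GRCm39, per the submitters' processing notes, whereas the file headers name version 5.0.0 and the control's gene list names mm10. Here, cells with at least 200 genes and at most 30% mitochondrial UMIs were kept, doublets were removed at an expected 0.8% per 1000 cells, and genes needed a UMI in 3 cells. Cells were clustered (3000 variable genes without the listed genes, 40 components, correction by library, 15 neighbours, Leiden resolution 1.5; igraph 0.11.9, leidenalg 0.10.2). Ambient RNA was not removed. Of 44 clusters, 6 stayed unnamed; naming rules beyond the markers were settled after the clusters were seen. An EC-like subcluster led by more markers of another class than of its own stayed unnamed.

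UMIs were summed per class and library (at least 20 cells) and tested with edgeR 4.0.16 (TMM, filterByExpr, quasi-likelihood, adjusted p under 0.05); the SE is the log2 fold change divided by the root of F. DESeq2 1.42.0 was an alternative. Levels are UMIs per 10000 of a class; intervals are exact 95% Poisson and cover counting error only, and a count of 0 allows up to 3 counts. The members and gene lists were chosen with earlier results of these data known. Named were all 10 members, list genes that a count turned on, and the 3 genes most like Vegfa and Kdr. Outside this rule, Nrp1, Pgf, Esm1, Apln, Lrg1 and Icam1 were named as examples with their values known. Subsets of EC-like and PT-like cells were added after seeing the data and give values only. Podocyte-like fits that had been planned could not be run, since no cluster was so named. Results that need certain withheld genes are not reported here. On simulated EC-like counts with 200 of 12475 genes changed, 78% of 4-fold and 11% of 2-fold changes were recovered for AKI against control, 71% and 12% for CKD against control, and 87% and 23% for CKD against AKI, with 3, 4 and 6 false calls. The genes' promoters came from RefSeq GRCm38.p6.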

Additional observations from a re-analysis of the deposited data

How the results depend on the processing

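The control is 1 library, and each AAI group is 2, and counts of called genes moved with most settings. Of 84 log2 fold changes of the 10 genes (by cell class and contrast), 38 kept their sign under every alternative and 46 took the other sign under at least 1, among them Flt1 in EC-like CKD against AKI (-0.34 to 0.30), Plvap in PT-like AKI against control (-0.65 to 1.81) and Kdr in pericyte/fibroblast-like AKI against control (-2.11 to 1.10). The value that had passed the threshold with 5 libraries (Angpt1 in PT-like cells) kept its sign. Over single values under an alternative, 1022 stayed on their side of the threshold or, for cell subsets without a test, moved by less than the SE. Of the rest, 70 came to pass the threshold, 6 no longer passed, and 11 without a test moved by at least the SE. In EC-like cells (0 calls for CKD against AKI, 6 for AKI against control, 16 for CKD against control), the counts in that order were 4, 307 and 333 with DESeq2, 334, 1059 and 916 with no filter on low counts, and 1, 79 and 38 with no correction by library. With doublets kept they were 1, 263 and 429, and with at most 15% mitochondrial UMIs AKI and CKD against control gave 196 and 150. In PT-like cells AKI against control (1052) gave 2278 with no filter and 307 at 15%, and CKD against AKI (16) gave 185 with DESeq2, 1016 with no filter, 1 with doublets kept, 5 at 15% and 124 with no correction. In TAL-like cells AKI against control (1326) gave 733, 2422, 466 and 665 with DESeq2, no filter, 15% and no correction, and CKD against AKI (11) gave 45, 667, 4 and 2, and 28 with doublets kept. Pericyte/fibroblast-like cells (0 and 0) gave 29 and 31 with DESeq2 and 1 and 28 with no correction. The cause of these shifts was not tested.

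Replicate numbers were shared by AKI and CKD only as numbers: deviations of same-numbered libraries from their group means correlated at 0.14 in EC-like, 0.17 in PT-like, 0.14 in TAL-like and -0.02 in pericyte/fibroblast-like cells. With the replicate block, EC-like counts were 69, 630 and 610, PT-like CKD against AKI 478, TAL-like CKD against AKI 196, and pericyte/fibroblast-like 63 for AKI against control and 101 for CKD against AKI. Kdr then had adjusted p = 0.0177 (AKI against control) and 0.0129 (CKD against control), Tek 0.0283 (AKI against control), and Angpt2 0.0467 and, for CKD against AKI, 0.0059. Vegfa in PT-like cells (AKI against control) had 0.0366, and the block changed no other call of the 10 genes. Leaving out 1 library at a time, counts ranged from 0 to 1828 (EC-like, CKD against AKI), 0 to 2431 (AKI against control), 0 to 2280 (CKD against control), 0 to 1891 and 143 to 3472 (PT-like, CKD against AKI and AKI against control), 8 to 1633 and 420 to 3948 (TAL-like), and 0 to 1290 and 0 to 551 (pericyte/fibroblast-like). With 1 library left in a group, its spread was taken from the others.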

Other observations

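In EC-like cells, endothelial activation genes outside the 10 had higher values in the AAI libraries. Of 9 tested endothelial activation and clotting genes, all lay above 0 for AKI against control (median 1.58 on the log2 scale, against 0.00 over all genes tested) and for CKD against control (median 1.31), and 0 were called by edgeR with 5 libraries. With 5 libraries 0.0481% of all genes tested passed for AKI and 0.128% for CKD. With CKD 1 or CKD 2 left out most of the 9 were called higher, and calls over all genes tested rose too. Those fits held 1 CKD library and took their spread from the AKI libraries. Lrg1, a secreted glycoprotein that modifies endothelial growth signals, was at 0.0555 UMIs per 10000 in control, 2.59 and 3.65 in AKI, and 1.53 and 3.44 in CKD (adjusted p = 0.0561 for AKI). Icam1, a leukocyte adhesion molecule, was at 1.84, then 6.05 and 5.35, then 3.63 and 7.18. Lrg1 and Icam1 were named as examples with their values known. The 12 stress genes had a median of 1.41 for AKI and 1.20 for CKD, with 12 of 12 above 0 in both. Of these, 0 were called with 5 libraries, and their part in these values was not tested.

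Among the other angiogenic genes, 3 were picked after their values were seen. Pgf, a ligand of Flt1, was at 0.0185 UMIs per 10000 in control, 0.235 and 0.198 in AKI, and 0.126 and 0.0898 in CKD (3.59 ± 0.42 on the log2 scale for AKI, adjusted p = 0.0561). Esm1, a marker of VEGF-stimulated tip cells, was at 13.1 in control and 3.59 to 4.74 in the AAI libraries (-1.69 ± 0.20 for AKI, adjusted p = 0.0564). Apln, the ligand of the apelin receptor, was at 0.121 in control, 0.416 and 0.803 in AKI, and 0.118 and 0.137 in CKD, an order like that of Angpt2 (-2.19 ± 0.35 for CKD against AKI, adjusted p = 0.922). The other lists had these medians for AKI against control: tip cell and Notch genes -0.10, junction and surface genes 0.07, transcription factors 0.31, nitric oxide and vessel tone genes 0.04, hypoxia response genes 0.28 and VEGF ligands -0.24. With 5 libraries 0 were called in each. Some genes of each list were called for AKI against control with a CKD library left out, where calls over all genes tested rose too.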
